A study of Drosophila melanogaster with 2 samples.

Results

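The genes examined encode insulator and interband proteins of Drosophila melanogaster, chosen by symbol: Chro, pzg, Cp190, mod(mdg4), CTCF, BEAF-32, su(Hw), pita, Ibf1 and Ibf2. These are 10 of 13945 protein-coding genes on arms X, 2L, 2R, 3L, 3R and 4. The measurements were sites recovered by anti-GFP chromatin immunoprecipitation and sequencing (ChIP-seq) from whole embryos 0 to 18 h old of the strain gt-GFP. Per the labels, these transgenic flies make a gt-eGFP fusion protein, Giant being the repressor encoded by the gap gene gt. The series holds 1 group of 2 biological replicates, so each gene was described in the pooled list, in each replicate's list and beside all protein-coding genes, and no test between groups was possible. No read counts are held in the files, so sequencing depth is unknown. Whole embryos mix many cell types and stages, and the files do not show which cells carried a site.

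Insulator proteins bind DNA at the borders of chromatin domains. In flies several zinc-finger or related DNA-binding proteins, among them CTCF, Su(Hw), BEAF-32, Pita and the Ibf proteins, recruit shared cofactors such as CP190 and Mod(mdg4). Chromator (encoded by Chro) and Putzig (pzg, also called Z4) mark the open interbands of polytene chromosomes, where many constitutively used promoters lie. Here their genes are examined as places where Giant-eGFP signal was found, not their proteins.

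The genes differed widely in the signal at their own start sites. A summit, the position of highest signal in a peak, was counted for a gene when it lay in the gene body or within 10000 bp of it. In the authors' pooled thresholded list, which held 1825 peaks on these arms, 7 of the 10 genes had such a summit (Chro, pzg, Cp190, mod(mdg4), CTCF, BEAF-32 and pita), beside 34.9% of all protein-coding genes. The pooled summit lay in the gene body of 3 members (Chro, CTCF and mod(mdg4)), beside 5.76% of all genes. A pooled summit lay within 500 bp of a transcription start site (TSS) of the gene itself for 4 of 10 (Chro, pzg, Cp190 and CTCF), beside 7.49% of all genes. No pooled summit was found for su(Hw), Ibf1 or Ibf2. The number of members with a summit was 6 in the list of replicate 1, beside 27.3% of all genes, and 6 in that of replicate 2, beside 24.1%. The 6 genes were the same in both lists, namely the pooled 7 without BEAF-32. Ibf1 and Ibf2 are neighbours whose windows overlap, so they do not count as separate loci.

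The 7 members with a pooled summit had a median best rank of 280, where rank 1 is the highest signal of the list. The median over the 4866 protein-coding genes with a summit in their window was 633. The strongest summit of pzg, mod(mdg4) and pita was nearest to a TSS of another gene. That of BEAF-32 lay 7921 bp from its own TSS. The member windows held 12 pooled summits, and 7 of these peaks overlapped a thresholded peak of both replicates by at least 1 bp. Of the 12 summits, 2 were weak neighbours of a stronger summit (signal 3.27 at CTCF and 5.66 near pita). Without them, 10 summits remained, 6 of them in peaks shared by both replicates.

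**Figure D1:**
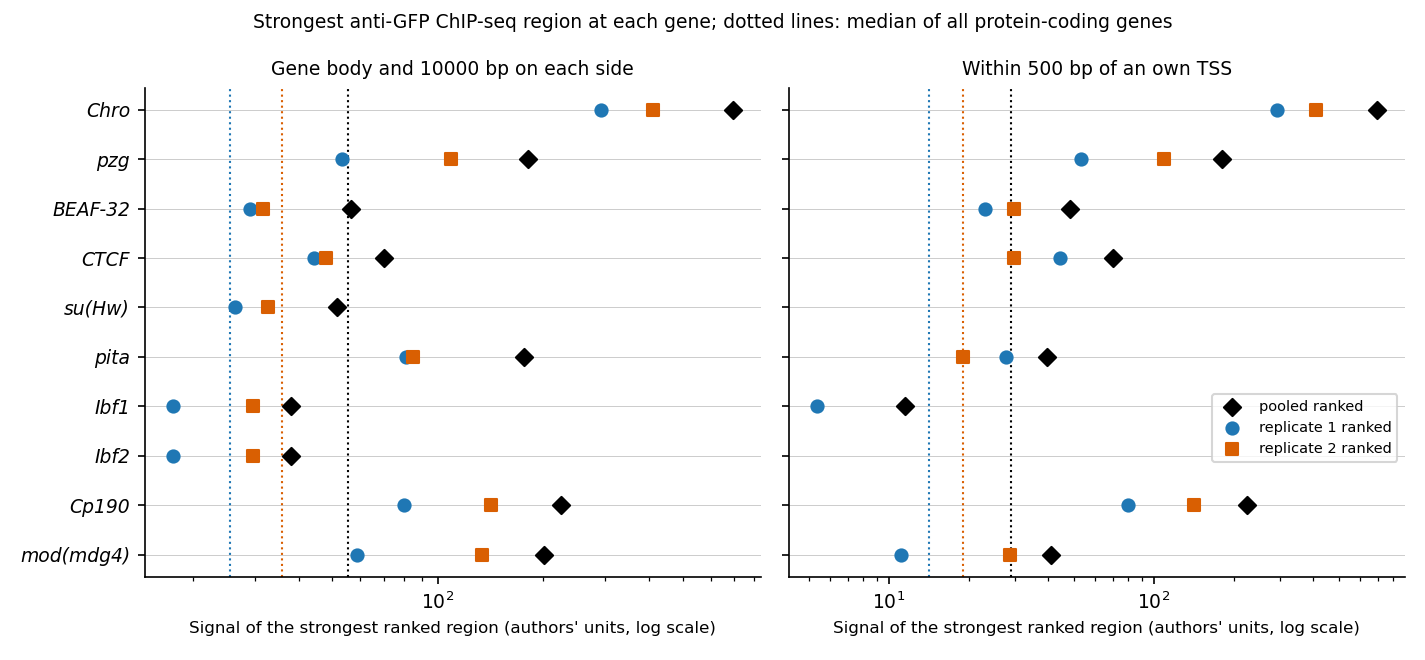
Each marker is the signal of the strongest ranked region at a gene (log scale, the authors' units), in the gene window on the left and within 500 bp of an own TSS on the right, for the pooled list and each replicate. Dotted lines give the median over all protein-coding genes with a region; Chro stands highest in every list, and the Ibf genes lie below the medians where they have a region.

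Of the interband genes, Chro carried the strongest site of the set. Chro (FBgn0044324, dm6 3L, 22873702 to 22878984, minus strand) encodes the chromodomain protein Chromator, which is needed for interband structure. Its promoter peak (3L, 22878762 to 22879029) had a signal of 695 in the pooled list and ranked 10 of 1825. The signal was 292 in replicate 1, at rank 14 of 1163, and 411 in replicate 2, at rank 8 of 1100. Both replicates thus placed the site near the top of their lists. The pooled summit lay 76 bp downstream of the most upstream Chro TSS, in the 5' UTR, and that of replicate 2 at the same base. The summit of replicate 1 lay 36 bp further into the gene. Of the protein-coding genes with a ranked region within 500 bp of an own TSS, 11 of 10774 had a stronger one than Chro in the pooled list, 14 of 9930 in replicate 1 and 7 of 10066 in replicate 2. The start site of Ssl1, which encodes a subunit of the general transcription factor TFIIH, lies 105 bp upstream on the other strand. Both genes thus form a divergent pair, and the pooled peak ended between their start sites. A further pooled summit at the edge of the Chro window (22863599 to 22863954, signal 104, rank 760) lay 14407 bp from the nearest Chro TSS and 87 bp upstream of CG33169. Its signal was 57.3 in replicate 1 and 47.6 in replicate 2.

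The sequence between the start sites of Chro and Ssl1 is shown because the strongest site lies at this divergent pair. It covers chr3L:22878985-22879088 of dm6 on the strand of Chro, 77 bp from the summit, and holds none of the motifs listed further on. Its GC content was 51.0%, while the 201 bp centred on the summit held 38.3%.
Chro upstream: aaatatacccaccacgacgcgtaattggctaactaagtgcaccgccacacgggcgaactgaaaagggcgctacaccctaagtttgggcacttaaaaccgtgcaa

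The other interband gene, pzg (FBgn0259785, 3L, 21286099 to 21290310, plus strand), encodes the zinc-finger protein Z4, a partner of Chromator. Its peak (3L, 21285748 to 21286103) had a pooled signal of 181 at rank 280. The signal was 53.2 in replicate 1, at rank 595, and 109 in replicate 2, at rank 260. The site passed the threshold in both replicates, lower in the list of replicate 1. The pooled summit lay 173 bp upstream of the pzg TSS but 36 bp inside CG12974, a gene that starts 137 bp away on the other strand. Among genes with a ranked promoter region, 97.7% had a weaker one than pzg in the pooled list. The stretch between both start sites is shown as the counterpart of the Chro promoter. It covers chr3L:21285963-21286098 on the strand of pzg, 37 bp from the summit, and holds none of the motifs listed further on. Its GC content was 60.3%, while the 201 bp centred on the summit held 40.3%.
pzg upstream: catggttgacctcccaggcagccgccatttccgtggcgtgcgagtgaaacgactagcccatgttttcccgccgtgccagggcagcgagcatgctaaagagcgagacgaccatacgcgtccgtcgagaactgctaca

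Of the cofactor genes, Cp190 had the second strongest promoter site of the set. Cp190 (FBgn0000283, 3R, 15270432 to 15275241, minus strand) encodes a BTB-domain protein that several DNA-binding insulator proteins recruit. Its peak (3R, 15275176 to 15275531) had a pooled signal of 225 at rank 172. The signal was 80.1 in replicate 1, at rank 275, and 142 in replicate 2, at rank 144. The 3 summits lay 113 bp (pooled), 67 bp (replicate 1) and 120 bp (replicate 2) upstream of the most upstream Cp190 TSS, between Cp190 and CG4338, whose divergent TSS is 281 bp away. Among genes with a ranked promoter region, 98.6% had a weaker one in the pooled list, 97.7% in replicate 1 and 98.7% in replicate 2. The window around Cp190 held few ranked regions, 6.85 per 10000 bp, where the median over all protein-coding genes was 12.4 and the quartiles were 10.3 and 13.9.

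Base composition at the Cp190 peak depended on which summit was used. The 201 bp centred on the pooled summit held 24.9% GC, and 1.97% of pooled summits had a lower value. The window held 24.4% GC at the summit of replicate 2 and 34.8% at that of replicate 1, which lay 46 bp from the pooled one. The median was 36.8% over pooled summits and 42.3% over 19252 protein-coding start sites. The pooled window held 2 sites within 1 mismatch of TTACGTAA, the palindromic Giant site, each matching 7 of its 8 bases. One lay 46 to 53 bp and the other 203 to 210 bp upstream of the Cp190 TSS, on either side of the summit. Their starts were 67 bp and 90 bp from the pooled summit, so neither lay within 50 bp of it. The site further from the TSS was also more than 100 bp from the summit of replicate 1. A site within 1 mismatch was present at 9.32% of pooled summits and in 6.93% of windows of 201 bp centred on protein-coding start sites. The part played by the low GC content in these matches was not tested. The sequence is shown for these sites, in capitals, and covers chr3R:15275254-15275453 on the strand of Cp190.
Cp190 upstream: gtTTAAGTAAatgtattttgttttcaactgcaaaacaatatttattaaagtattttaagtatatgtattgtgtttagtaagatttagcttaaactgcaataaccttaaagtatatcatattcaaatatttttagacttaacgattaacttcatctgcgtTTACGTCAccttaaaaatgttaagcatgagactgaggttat

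The other cofactor gene, mod(mdg4) (FBgn0002781, 3R, 21350846 to 21377401, minus strand), had its pooled summits away from its own start. Mod(mdg4) is a BTB-domain protein made in many isoforms, some joined by trans-splicing from separately transcribed 3' exons. The annotation gives 22 transcripts with 1 shared TSS and lists the separately transcribed parts as pre-mod(mdg4) genes. The stronger summit (3R, 21378571 to 21378926, signal 201, rank 230) lay 1348 bp upstream of mod(mdg4) and 228 bp upstream of tin, the neighbouring heart regulator gene. Its signal was 58.9 in replicate 1, at rank 491, and 134 in replicate 2, at rank 164.

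The other mod(mdg4) summit lay inside the gene, 11954 bp from its TSS (3R, 21365269 to 21365624, signal 134, rank 498). It was 41 bp downstream of the start of pre-mod(mdg4)-E, one of the separately transcribed parts, in a 5' UTR. It passed the threshold in replicate 2 (signal 90.1, rank 379) and not in replicate 1, whose strongest overlapping ranked region had a signal of 43.9 and a −log10 irreproducible discovery rate (IDR) of 1.17. The IDR estimates the rate of irreproducible regions from how high and how alike a pair of peak sets rank them, and a higher −log10 value means a lower estimated rate. At the TSS of mod(mdg4) itself the strongest ranked region had a pooled signal of 40.8, with 11.1 in replicate 1 and 28.7 in replicate 2, and was in no thresholded list. The median over all genes with a ranked promoter region was 29.0 in the pooled list, 14.2 in replicate 1 and 19.0 in replicate 2. The mod(mdg4) TSS therefore lay above the median in the pooled list and in replicate 2 and below it in replicate 1. The sequence beside the internal summit is shown as the nearest stretch free of annotated UTR and coding sequence. It covers chr3R:21365489-21365608 on the strand of mod(mdg4) and has no match to the motifs listed further on.
mod(mdg4) internal: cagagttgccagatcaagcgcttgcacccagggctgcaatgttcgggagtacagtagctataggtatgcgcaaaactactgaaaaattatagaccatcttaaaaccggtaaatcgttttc

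**Figure D2:**
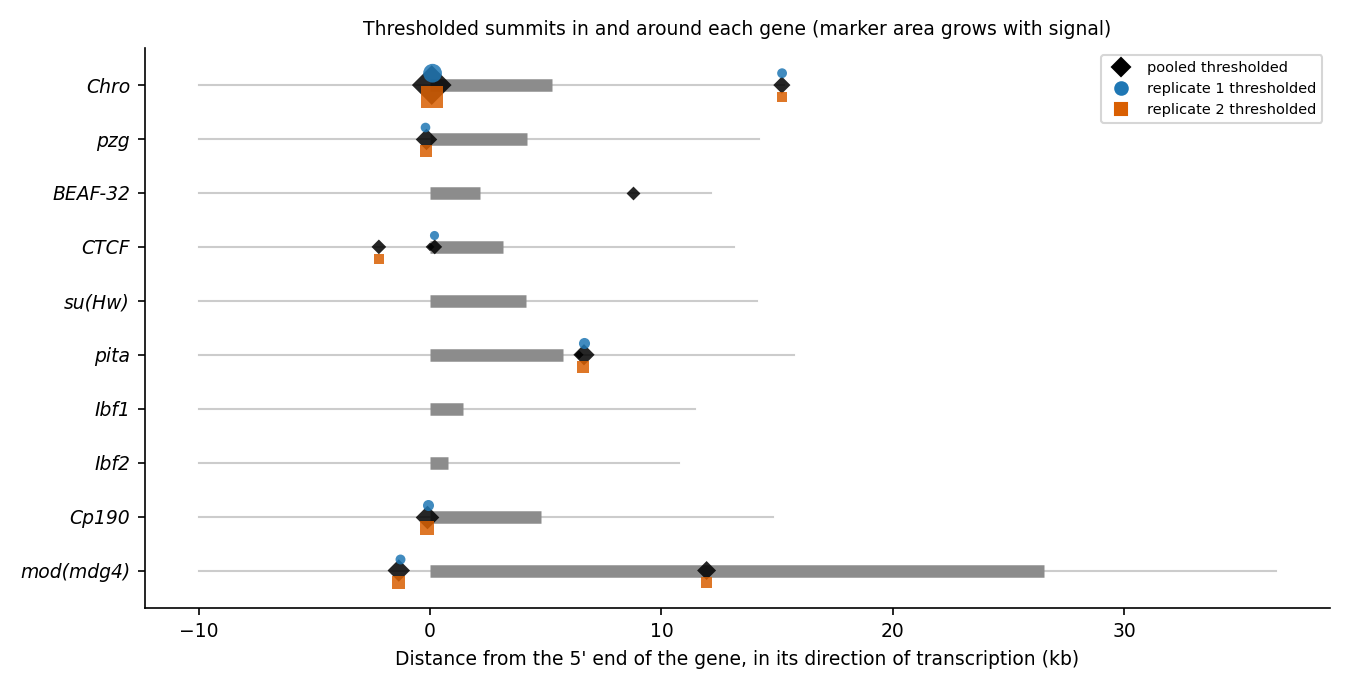
Thresholded summits of the pooled list and of each replicate are drawn along each gene, with distance from the gene's 5' end in kb on the x axis; thick bars are gene bodies, thin lines the 10000 bp on each side, and marker area grows with signal. Chro, pzg and Cp190 have a summit at the gene start in every list, Chro with another near the far edge of its window, while the summits of mod(mdg4), pita and BEAF-32 lie elsewhere and su(Hw), Ibf1 and Ibf2 have none.

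Among the genes of DNA-binding insulator proteins, CTCF had a promoter site in the lower part of the pooled list. CTCF (FBgn0035769, 3L, 7353578 to 7356713, minus strand) encodes the fly relative of the vertebrate zinc-finger insulator protein. Its strongest pooled peak (3L, 7356330 to 7356685, signal 70.2, rank 1417) had a summit 205 bp downstream of the TSS, in an intron. The peak passed the threshold in replicate 1 (signal 44.3, rank 811) and not in replicate 2, where the strongest overlapping ranked region had a signal of 29.6 and a −log10 IDR of 0.366. A pooled summit of signal 3.27 (7356532 to 7356887) lay 3 bp from the TSS and carried the same −log10 IDR, 2.50, as its stronger neighbour. A separate pooled summit 2209 bp upstream (7358744 to 7359099, signal 68.2, rank 1474), in the coding sequence of pst, passed in replicate 2 (signal 47.9, rank 998) and not in replicate 1. The replicates thus placed their thresholded CTCF summits at different sites. None of the CTCF peaks was in the authors' conservative list. Among genes with a ranked promoter region, 90.7% had a weaker one than CTCF in the pooled list, 93.8% in replicate 1 and 80.8% in replicate 2.

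Sequence at CTCF held the DREF and BEAF site. An exact TATCGATA, a palindrome bound by DREF and BEAF, lay 14 to 21 bp upstream of the CTCF TSS. The strongest summit's window held the shorter CGATA, which is contained in TATCGATA, 20 bp from the summit. An exact TATCGATA was present within 100 bp of 2.63% of pooled summits and 6.45% of protein-coding start sites, so it was more frequent at start sites in general than at these peaks. The sequences are shown for these matches, in capitals, on the strand of CTCF. The first covers chr3L:7356714-7356913, directly upstream of the TSS, and the second chr3L:7356460-7356580, around the strongest summit.
CTCF upstream: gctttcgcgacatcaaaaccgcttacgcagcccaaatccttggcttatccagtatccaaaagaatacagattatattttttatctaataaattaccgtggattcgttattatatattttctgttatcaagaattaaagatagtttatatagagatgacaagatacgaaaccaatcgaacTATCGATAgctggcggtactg
CTCF intron: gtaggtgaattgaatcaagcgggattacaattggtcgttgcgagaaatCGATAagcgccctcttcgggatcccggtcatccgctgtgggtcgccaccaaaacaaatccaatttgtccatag

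**Figure D3:**
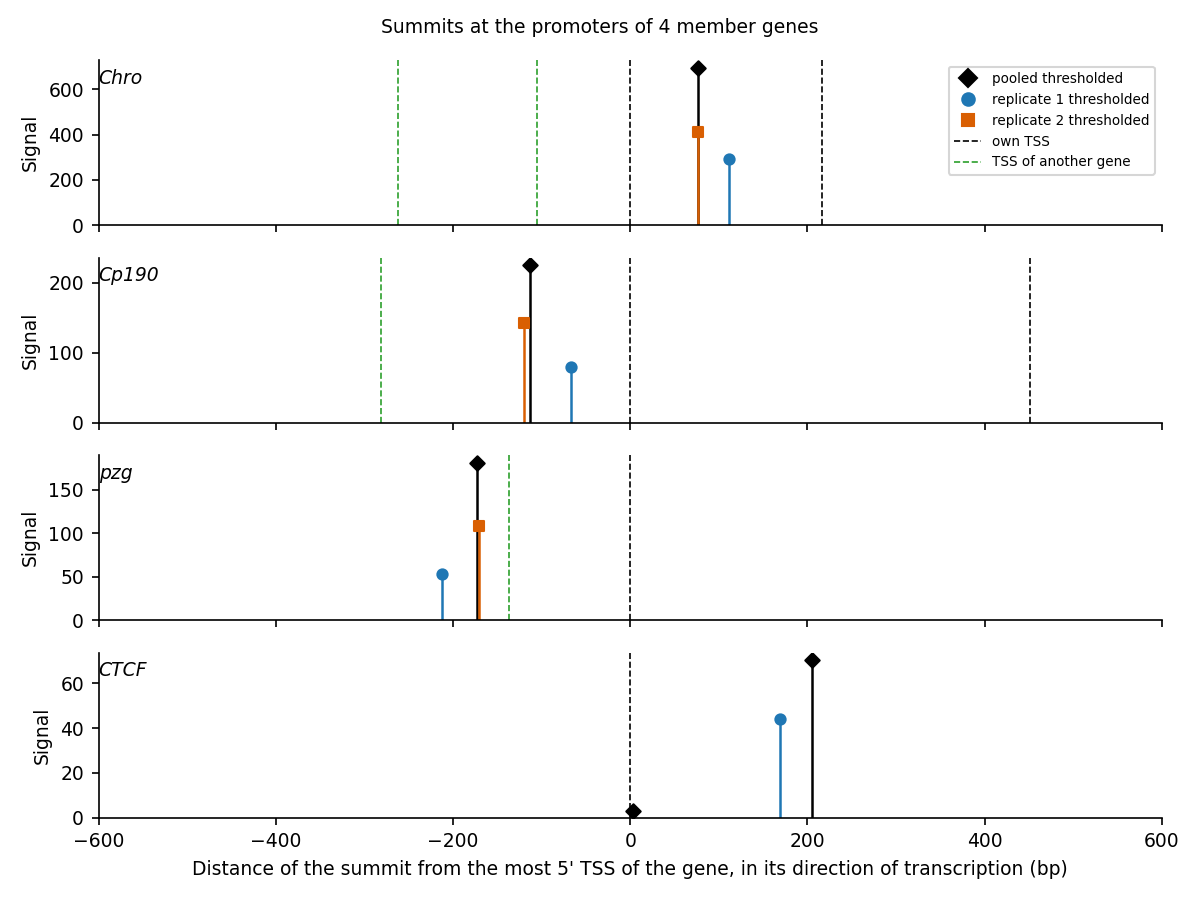
Signal (y axis, the authors' units) is plotted against the distance of each thresholded summit from the most upstream TSS of the gene (x axis, bp), for the pooled list and each replicate; dashed lines mark start sites. Pooled summits lie 76 bp downstream of the TSS at Chro, 113 bp upstream at Cp190, 173 bp upstream at pzg and 205 bp downstream at CTCF, where replicate 2 has none.

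The remaining genes had no thresholded summit within 500 bp of an own TSS. The gene pita (FBgn0034878, 2R, 23548967 to 23554712, minus strand) encodes a zinc-finger protein that binds insulators and recruits CP190. Its strongest summit (23547878 to 23548233, signal 176, rank 300) lay 911 bp past the 3' end of the gene. The signal there was 81.2 in replicate 1, at rank 270, and 84.9 in replicate 2, at rank 420, so the site was thresholded in both. This summit was 68 bp from a start site of wmd, and a weak pooled summit (signal 5.66) lay 30 bp inside levy, which encodes a cytochrome c oxidase subunit. At the start of pita itself the strongest ranked region had a signal of 39.6 in the pooled list, 27.6 in replicate 1 and 19.0 in replicate 2. Its pooled −log10 IDR was 0.895, and no list placed it past the threshold.

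BEAF-32 (FBgn0015602, 2R, 14770469 to 14772630, plus strand) encodes a boundary-binding protein of the scs' element. It had a single weak pooled summit (14779044 to 14779399, signal 56.6, rank 1710), 7921 bp from its nearest TSS and in an intron of kn, which encodes the transcription factor Knot. Neither replicate's thresholded list held it. The strongest overlapping ranked region had a signal of 29.1 in replicate 1 and 31.6 in replicate 2. The pooled −log10 IDR was 2.01. At the BEAF-32 promoter a ranked region with its summit 40 bp upstream of a TSS had a pooled signal of 48.1 and a −log10 IDR of 1.70. Its signal was 23.1 in replicate 1, and the strongest promoter region of replicate 2 had 29.7. These values exceeded 83.0%, 82.1% and 80.9% of the genes with a ranked promoter region in the respective lists. The BEAF-32 promoter thus ranked above most genes in each list without passing the threshold in any.

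No thresholded list held a summit in the windows of su(Hw), Ibf1 and Ibf2. The gene su(Hw) (FBgn0003567, 3R, 14304455 to 14308589, minus strand) encodes the zinc-finger protein of the gypsy insulator. No ranked region of any list had its summit within 500 bp of its TSS, although 77.3% of genes had one in the pooled list, 71.2% in replicate 1 and 72.2% in replicate 2. The strongest region in its window was a different one in each list. The signal was 51.6 in the pooled list, at a summit 4388 bp upstream of the TSS. It was 26.3 in replicate 1, at 11170 bp downstream, and 32.8 in replicate 2, at 2155 bp upstream. The medians over all genes were 55.5, 25.5 and 35.8, so su(Hw) lay near the middle of all genes.

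Ibf1 (FBgn0037670, 3R, 9258964 to 9260400, plus strand) and Ibf2 (FBgn0037669, 3R, 9257727 to 9258501, minus strand) encode partner proteins that bind DNA and recruit CP190. Their start sites lie 463 bp apart on opposite strands. The strongest region near them, shared by both windows, had a pooled signal of 38.1, and 7.69% of genes had a weaker one. The strongest signal was 17.5 in replicate 1, at another site, and 29.7 in replicate 2, where 7.10% and 24.2% of genes had a weaker one. Within 500 bp of the Ibf1 TSS the strongest region had a pooled signal of 11.5, with 5.32 in replicate 1 and no region in replicate 2. No region of any list had its summit within 500 bp of the Ibf2 TSS. Most protein-coding genes thus had a stronger region than the Ibf pair in each list.

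Divergent start sites were common among the members with and without a peak. A protein-coding TSS on the opposite strand lay within 1000 bp upstream for 6 of 10 members, namely Chro, pzg, Cp190, su(Hw), Ibf1 and Ibf2. Over all protein-coding genes the share was 36.2%. Of the 5052 divergent genes, 13.8% had a pooled summit within 500 bp of an own TSS, and of the 8893 other genes 3.90%. Among the members, 3 of the 6 divergent genes (Chro, pzg and Cp190) had such a summit. Ibf1 and Ibf2 are each other's partner, so the 6 genes are not 6 separate promoters. The gap between the start sites was 105 bp at Chro, 137 bp at pzg and 281 bp at Cp190. It was 463 bp at the Ibf pair and 500 bp between su(Hw) and Polr2I, which encodes an RNA polymerase II subunit. Among these divergent promoters the 3 with a summit had the shorter gaps, which was not tested. CTCF, the other member with a promoter summit, had no divergent protein-coding TSS within 1000 bp upstream.

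The 12 pooled summits were searched for 8 motifs, on either strand, in windows reaching 100 bp to each side. CGATA was present at 7 of 12 (58.3%), beside 25.3% of pooled summits and 37.1% of protein-coding start sites. Without the weak neighbouring summits at CTCF and near pita, it was present at 5 of 10. The nearest start lay 16 bp from the summit at Chro, 6 bp at pzg, 3 bp at BEAF-32, and 20 bp and 17 bp at the CTCF promoter summits. At the summits near pita it lay further away, at 46 bp and 82 bp. At pzg the CGATA match overlapped a site within 1 mismatch of TTACGTAA by 2 bases. TATCGATA was present at 2 of 12, both of them the weak neighbouring summits at CTCF and near pita, and at 0 of the 10 other summits. TTACGTAA with at most 1 mismatch was present at 2 of 12, those of Cp190 and pzg.

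The other motifs were each present at 2 or fewer of the 12 summits. CAGTG, the core of sequences frequent at the pooled summits as a whole, was present at 2 of 12, beside 50.7% of pooled summits and 36.9% of start sites. The 2 were the summits in pst near CTCF and beside CG33169 near Chro. In windows reaching 200 bp CAGTG was at 6 of 12, and no share over all summits was computed for that width. The longer ACAGTGG was at 0 of 12, beside 10.3% of pooled summits and 2.28% of start sites. GGTCACACT, the M1BP motif, was at 0 of 12 (0.822% and 4.42%). AGGNGGC, the core of the CTCF motif, and GAGAG, the GAGA factor motif, were each at 1 of 12, the BEAF-32 summit in kn. AGGNGGC was at 7.56% of pooled summits and 6.25% of start sites, and GAGAG at 24.6% of pooled summits. With 12 summits, the counts for ACAGTGG, GGTCACACT and AGGNGGC were near the shares over all pooled summits. A match describes the sequence and does not show a bound site.

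Genes of other architectural proteins were compared with the members. Of 30 listed genes 29 were found in the annotation, 2 of them by an older symbol. In the pooled list 14 of 29 had a summit in the gene body or within 10000 bp (34.9% of all genes), and 7 of 29 had one within 500 bp of an own TSS (7.49%). The count was 12 in replicate 1 (27.3%) and 11 in replicate 2 (24.1%). Elba2 and insv share their single summit, so the 14 genes are not 14 separate loci. The median best rank of the 14 was 398. The 7 with a promoter summit were Trl, Nup98-96, shep, Dref, Cap-H2, SA1 and gfzf. Genes of the zinc-finger insulator protein Zw5 (dwg), of M1BP and of the cohesin subunits SMC1, SMC3 and vtd had no pooled summit. SA1, another cohesin subunit gene, had one 63 bp from its TSS (signal 102, rank 782). The SA1 peak overlapped a thresholded peak of replicate 2, at rank 640, and none of replicate 1. The single pooled peak of gfzf overlapped no thresholded peak of either replicate.

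The strongest summits in these windows often belonged to other genes. The highest was near Opbp (signal 665, rank 12), 9853 bp from its TSS and 800 bp from that of Adf1. At Trl, which encodes the GAGA factor, the strongest summit (signal 368, rank 61) lay 1530 bp from a Trl TSS, with ranks 105 and 42 in replicates 1 and 2. Next came l(3)mbt (212, 169 bp from mrt), Nup98-96 (206, 109 bp from tst) and JIL-1, the interband histone kinase gene (171, 7061 bp from its own TSS). The summit near Top2 (171) lay 114 bp from Hs2st. Among these 6 genes, Trl and JIL-1 were those whose strongest summit had a TSS of the gene itself as its nearest.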

How the data were processed

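Peaks from ChIP-seq with an anti-GFP antibody were taken as deposited for 2 biological replicates. The fragment size range was 200 to 800 bp, per the labels. The authors' assembly is dm6, per the deposited text files and labels; the labels also name a possible control experiment, not analysed here. Neither aligner nor peak caller is named in the sources used here. The deposited peak signal is the authors' deposited value with unknown scaling, so it was ranked or described within a list. The −log10 IDR is the deposited value of the ranked lists.

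Positions were computed with Python 3.11.15, pandas 2.3.3 and numpy 2.4.6, using Release 6 sequence (RefSeq) and Ensembl release 115 genes. Arm lengths exceeded every peak end. Summits were column 2 plus column 10, written 1-based. Ranks count peaks on the 6 arms. Assignment was tested on simulated summits. Members, lists and motifs were chosen with earlier results of these data known. Every member is named, and of the related genes the 6 strongest with values; others named were picked after their values were seen. No test was run, since 1 group has no contrast. Printed sequences leave out annotated UTRs and coding sequence. One listed symbol, Mzfp1, was not matched. Alternatives covered lists, windows, assignment, motif windows and overlap rules.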

Additional observations from a re-analysis of the deposited data

How the results depend on the processing

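The count of members with a pooled summit in the window (7) fell to 3 with the gene body alone and to 4 when a summit counted only for the gene with the nearest TSS (Chro, Cp190, CTCF and BEAF-32). It was 5 in the conservative list and among peaks above the median signal, which both left out CTCF and BEAF-32, and 6 in either replicate's list. The count with a promoter summit (4) was 3 to 4 with a replicate left out. It was 5, with BEAF-32 added, at an IDR of at most 0.05, in a longer list of 3617 regions. The share of all genes was 5.76% for the gene body alone, 27.3% for the window in replicate 1 and 24.1% in replicate 2. No such share was computed for the other alternatives, so their counts cannot be set beside all genes. The 12 summits became 7 in the conservative list and above the median signal, 4 in gene bodies alone and 7 to 8 with a replicate left out. The median best rank ranged from 212 to 383 with a replicate left out, in lists of different lengths. Motif counts changed with the window. Within 50 bp, TATCGATA was at 1 summit, CGATA at 6, AGGNGGC at 0 and TTACGTAA at 1. Within 200 bp, TATCGATA was at 4, CGATA at 10, GAGAG at 2, CAGTG at 6, ACAGTGG at 1 and TTACGTAA at 4. Without summits near a stronger one, an alternative added after the data were seen, TATCGATA was at 0 and CGATA at 5. Wider windows hold more sequence. No paired analysis was possible because the series holds a single group. Without read counts, the limit set by depth is unknown.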

Other observations

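Weak summits beside strong ones were a property of the whole pooled list. Of 1825 pooled peaks, 51 had a signal below 10, and all 51 of them lay within 300 bp of a stronger pooled summit. The summit at the CTCF start (3.27) and the one inside levy near pita (5.66) were among them. At pita the weak and the strong summit carried the same −log10 IDR of 3.53.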
